A study of Mus musculus with 39 samples.

Results

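The core circadian clock of mouse lung was described through 10 genes: the activators Arntl, Npas2 and Clock and the repressors Per1, Per2, Per3, Cry1, Cry2, Nr1d1 and Nr1d2. They are 10 of the 18193 genes named on the arrays, and all 10 were among the 13020 genes bright enough to be tested. Each gene was read by the probe set annotated to its symbol alone that had the highest mean signal over the 39 arrays. The genes were picked with earlier results on these arrays known, so their counts and differences are descriptions of this set.

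All lungs came from female CD1 mice (strain Crlj:CD1(ICR)) eating a powdered diet, 1 animal on each array, and each animal was a separate biological replicate by its label. One set of mice ate isoniazid at 2500 ppm, which the submitters used as a positive control for tumour induction. The others ate permethrin, a pyrethroid insecticide, at 0 ppm (the control), 5000 ppm or 10000 ppm. Each diet was given for 7 days, with lungs taken at an age of 11 weeks, or for 14 days, with lungs taken at 12 weeks. Every group held 5 mice except permethrin 10000 ppm at 14 days, which held 4. No source used here states the hour of the day at which a lung was taken, and its part in the values below was not tested.

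In the clock of mammalian cells, the protein of Arntl, also called BMAL1, pairs with CLOCK or with its relative NPAS2 and switches on genes that carry E-boxes. Among those genes are Per and Cry, whose proteins return to the nucleus and block the pair, and Nr1d1 and Nr1d2, whose proteins (REV-ERB alpha and beta) repress Arntl and Npas2. In peripheral tissues of mice, Arntl and Npas2 transcripts peak at nearly the opposite time of day from Nr1d1, Per3 and the output gene Dbp. In lung, the clock of the airway epithelium is known to gate the chemokine Cxcl5 and the inflow of neutrophils.

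Short upstream windows of 5 of these genes are shown because they hold matches to elements through which clock proteins act on DNA. The sequences are RefSeq's (build GRCm38.p6), 250 bases before a transcript's start, read 5′ to 3′ on the gene's strand. Capitals mark the matches found.
Per1, chr11:69098699-69098948, plus strand: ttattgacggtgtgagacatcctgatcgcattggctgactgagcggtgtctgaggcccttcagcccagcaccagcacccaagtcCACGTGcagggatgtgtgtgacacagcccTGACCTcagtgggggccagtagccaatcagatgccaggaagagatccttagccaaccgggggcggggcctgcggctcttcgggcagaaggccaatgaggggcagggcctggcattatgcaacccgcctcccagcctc
Cry1, chr10:85185055-85185304, minus strand: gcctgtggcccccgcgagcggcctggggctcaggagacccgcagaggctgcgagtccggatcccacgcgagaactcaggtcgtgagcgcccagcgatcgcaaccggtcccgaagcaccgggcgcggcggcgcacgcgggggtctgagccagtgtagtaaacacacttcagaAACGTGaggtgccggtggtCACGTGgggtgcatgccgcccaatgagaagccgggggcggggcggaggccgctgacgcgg
Per3, chr4:151044666-151044915, minus strand: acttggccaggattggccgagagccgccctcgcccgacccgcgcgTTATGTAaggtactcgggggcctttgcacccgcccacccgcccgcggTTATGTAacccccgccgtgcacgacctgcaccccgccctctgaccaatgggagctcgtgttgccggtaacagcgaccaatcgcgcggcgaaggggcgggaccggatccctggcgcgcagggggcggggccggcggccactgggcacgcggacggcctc
Nr1d1, chr11:98775378-98775627, minus strand: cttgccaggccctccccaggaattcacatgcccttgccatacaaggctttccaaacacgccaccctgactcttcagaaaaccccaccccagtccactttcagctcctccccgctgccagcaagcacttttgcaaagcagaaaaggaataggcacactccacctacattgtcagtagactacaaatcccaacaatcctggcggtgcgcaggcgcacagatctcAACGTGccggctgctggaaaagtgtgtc
Nr1d2, chr14:18239107-18239356, minus strand: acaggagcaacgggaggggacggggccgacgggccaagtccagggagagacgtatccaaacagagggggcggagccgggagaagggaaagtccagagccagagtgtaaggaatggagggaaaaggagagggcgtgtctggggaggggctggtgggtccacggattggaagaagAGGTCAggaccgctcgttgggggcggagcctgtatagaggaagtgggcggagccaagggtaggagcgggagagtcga

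Both strands of 300-base windows (250 bases before and 50 after a start) were searched for 4 elements. These were the E-box CACGTG, the E′-box CACGTT, which reads AACGTG on the other strand, the D-box cores TTATGTA and TTACGTA, and the core AGGTCA of the element bound by REV-ERB, which reads TGACCT on the other strand. Of the 27025 genes in the table, 8.09% had an E-box in at least 1 window, 5.44% an E′-box, 3.56% a D-box core and 18.1% the AGGTCA core. Over the 32851 single windows these shares were 7.15%, 4.68%, 3.09% and 16.3%. The table held 13 windows of 9 clock genes, and Per2 was not among them. Per1 and Cry1 had an E-box, 166 and 60 bases before the start. An E′-box stood in the windows of Cry1, Cry2 and Nr1d1. Per3 had a pair of D-box cores, 205 and 158 bases before its start. The AGGTCA core was found in 4 genes: Arntl, where it lay 32 bases after the start, Clock, Per1 and Nr1d2. A match is a run of letters and not a measured binding site.

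Signals are given below as log2 of the quantile-normalized array signal, so a difference of 1 is a doubling, and levels are compared within a gene only. Since whole lung was measured, fewer cells of a type and less RNA per cell cannot be told apart. The clearest pattern was in the isoniazid lungs. Npas2 was 2.18-fold lower and Per3 2.07-fold higher there than in control lungs over both times, 2 genes called beside 0.392% of all genes, and the other clock genes except Clock and Cry1 differed from control by 1.38-fold to 2.47-fold in the same arrangement, without passing the test. At 7 days alone, 6 of the 10 genes had isoniazid and control lungs that did not overlap, beside 1.94% of all genes, while none of the 10 passed the test, beside 0.0461%.

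**Figure D1:**
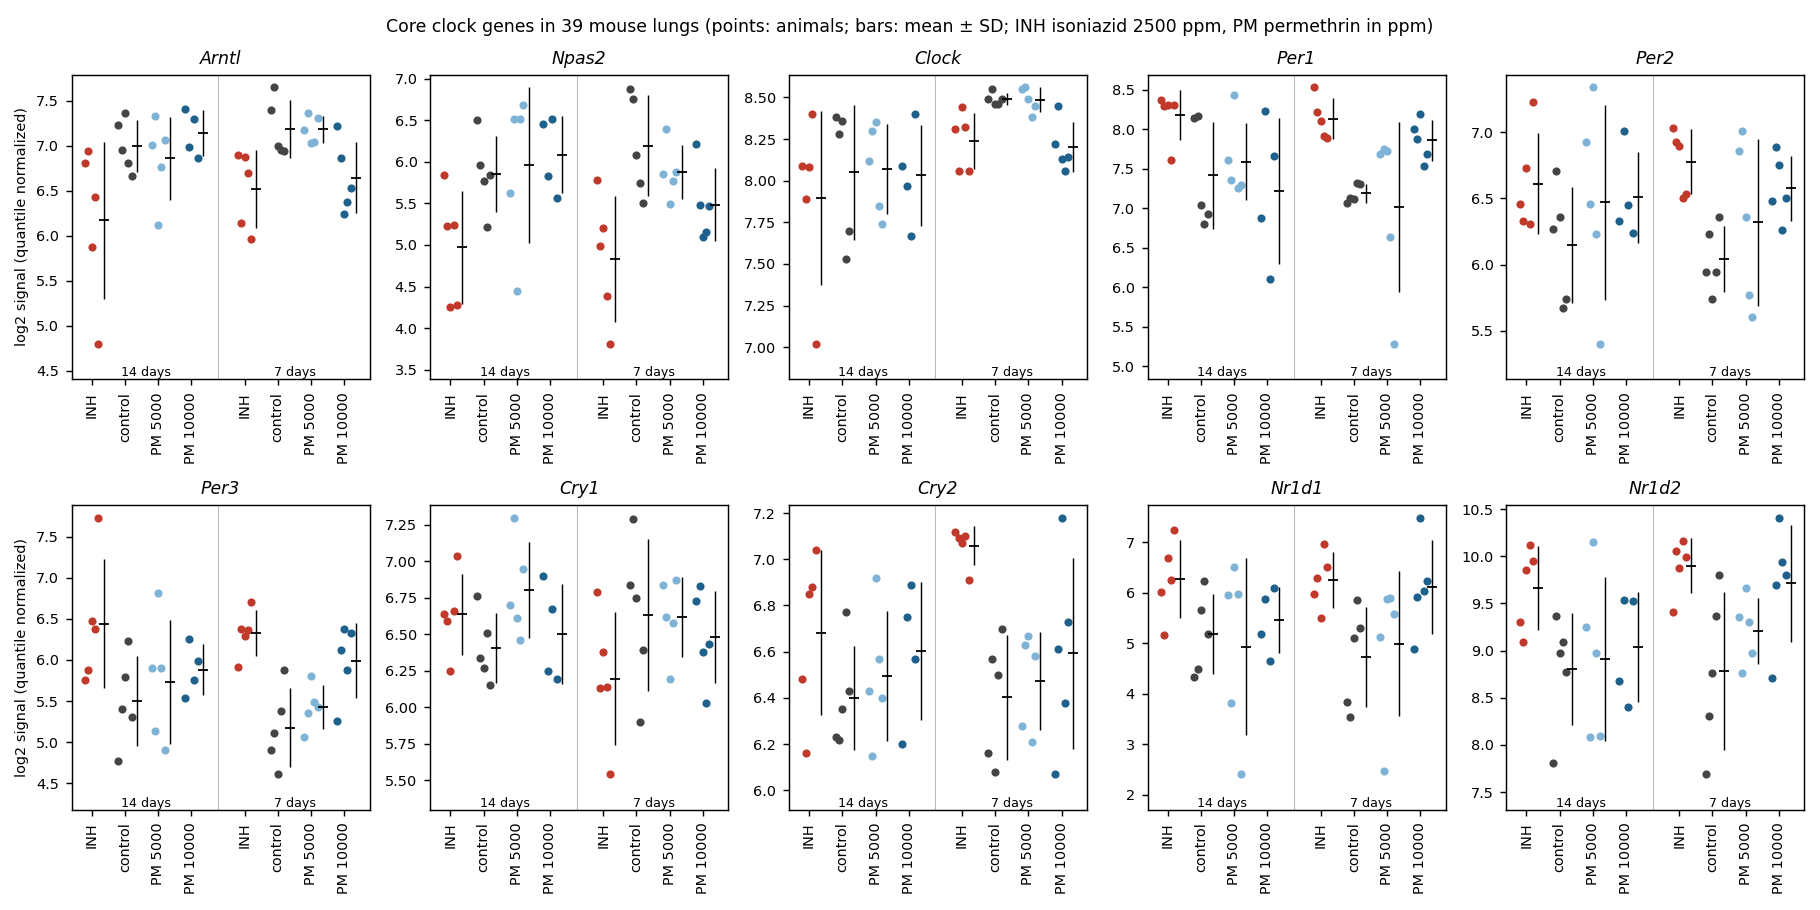
Log2 signal of the 10 clock genes in each animal, one panel for each gene. Each panel has the 14-day groups on the left and the 7-day groups on the right, each in the order isoniazid 2500 ppm (INH), control, permethrin (PM) 5000 ppm and permethrin 10000 ppm; points are animals and bars the group mean ± SD. An isoniazid group has the lowest mean of Arntl, Npas2, Clock and Cry1 and the highest mean of Per1, Per2, Per3, Cry2, Nr1d1 and Nr1d2.

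The activators had lower means in the isoniazid lungs than in control lungs at both times, by different amounts. Npas2, which can stand in for CLOCK as the partner of BMAL1, had 5.78, 4.99, 5.20, 4.39 and 3.81 in the 5 isoniazid lungs at 7 days, against 6.88, 6.76, 6.08, 5.75 and 5.51 in the 5 control lungs. At 14 days it had 5.84, 5.23, 4.26, 5.24 and 4.28 in isoniazid lungs, against 6.50, 5.96, 5.77, 5.22 and 5.84 in control lungs. All 10 isoniazid lungs lay under the control mean of their time, although the groups overlapped at both times. The log2 difference was -1.36 ± 0.37 (SE) at 7 days and -0.89 ± 0.37 at 14 days, with adjusted p of 0.26 and 0.768 in limma. Averaged over both times it was -1.13 ± 0.26, with a 95% interval of -1.65 to -0.60 and an adjusted p of 0.0361. The permethrin groups averaged 5.88 ± 0.33 (5000 ppm) and 5.48 ± 0.44 (10000 ppm) at 7 days, and 5.96 ± 0.94 and 6.09 ± 0.47 at 14 days (SD). In order of their means, the 2 isoniazid groups stood lowest and control at 7 days highest, and no 2 neighbours in that order differed by more than their SD.

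Arntl, the gene of the partner common to both activating pairs, had 6.90, 6.14, 6.88, 6.70 and 5.97 in isoniazid lungs at 7 days, against 7.40, 7.65, 7.00, 6.95 and 6.94 in control lungs. The highest isoniazid lung was just under the lowest control lung, so the groups did not overlap. At 14 days it had 6.81, 6.94, 5.88, 6.43 and 4.80 in isoniazid lungs, against 7.23, 6.95, 7.36, 6.81 and 6.66 in control lungs. Here 2 isoniazid lungs lay within the control range, and isoniazid replicate 5 was far below all other lungs of the series. The array of that lung also had the highest log2 ratios of 3′ to 5′ probe sets of all 39, 1.87 for Gapdh and 2.37 for Actb. The log2 differences were -0.67 ± 0.27 (adjusted p = 0.653) and -0.83 ± 0.27 (adjusted p = 0.602), and -0.75 ± 0.19 over both times (adjusted p = 0.0682). Without isoniazid replicate 5 the 14-day difference was -0.49, and without the 7 arrays of high Gapdh ratio, described below, -0.45. Permethrin lungs averaged 7.18 ± 0.15 (5000 ppm) and 6.65 ± 0.40 (10000 ppm) at 7 days, and 6.86 ± 0.46 and 7.14 ± 0.26 at 14 days (SD). Permethrin 10000 ppm at 7 days stood beside the isoniazid groups at the low end of the order, and neighbouring means differed by less than their SD throughout.

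Clock, the gene of the other partner of BMAL1, had the smallest differences of the activators. It ranged over 8.06 to 8.44 in isoniazid lungs at 7 days, against 8.46 to 8.55 in control lungs, a narrow band that the isoniazid lungs all fell below. At 14 days the isoniazid lungs spanned 7.02 to 8.40 and the control lungs 7.53 to 8.38. The log2 differences were -0.25 ± 0.17 and -0.15 ± 0.17, and the second became 0.07 without isoniazid replicate 5. Under permethrin, Clock averaged 8.48 ± 0.07 (5000 ppm) and 8.20 ± 0.15 (10000 ppm) at 7 days, and 8.07 ± 0.27 and 8.03 ± 0.30 at 14 days (SD). Its levels went with the quality of the RNA. The 7-day arrays all had a log2 ratio of the 3′ to the 5′ Gapdh probe set under 0.7, while 7 arrays at 14 days had a higher one: 2 isoniazid, 2 control, 2 permethrin 5000 ppm and 1 permethrin 10000 ppm. Clock ran from 7.02 to 8.08, with a median of 7.70, on those 7 arrays, and from 7.89 to 8.40, with a median of 8.29, on the other 12 arrays at 14 days. The medians of the other 9 genes in the same sets of arrays differed by less than that, except Per1, whose medians were 7.25 and 7.90.

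The Period genes, whose proteins are the limiting part of the repressor complex, all had higher means in the isoniazid lungs than in control lungs at both times. Per3 had 5.91, 6.38, 6.29, 6.36 and 6.70 in isoniazid lungs at 7 days, against 4.90, 5.11, 4.61, 5.38 and 5.88 in control lungs, with no overlap. Its 14-day signals were 5.75, 5.88, 6.47, 6.37 and 7.73 in isoniazid lungs, against 4.77, 5.40, 5.79, 6.23 and 5.30 in control lungs. The groups now overlapped, and isoniazid replicate 5, the lung with the lowest Arntl, had the highest Per3 of all 39. The log2 difference was 1.15 ± 0.31 at 7 days (adjusted p = 0.266) and 0.94 ± 0.31 at 14 days (adjusted p = 0.631), the second being 0.62 without isoniazid replicate 5. Over both times it was 1.05 ± 0.22, with a 95% interval of 0.60 to 1.5 and an adjusted p of 0.0204. With permethrin, Per3 means were 5.43 ± 0.27 (5000 ppm) and 5.99 ± 0.45 (10000 ppm) at 7 days, and 5.73 ± 0.75 and 5.88 ± 0.31 at 14 days (SD). The control and permethrin 5000 ppm groups at 7 days were the lowest in its order, and no neighbours differed beyond their SD.

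Per1, which also answers directly to light signals and glucocorticoids, had 8.53, 8.22, 8.10, 7.92 and 7.89 in isoniazid lungs at 7 days, against 7.07, 7.13, 7.11, 7.32 and 7.31 in control lungs. The lowest isoniazid lung was well above the highest control lung. After 14 days the signals were 8.37, 8.29, 8.31, 7.61 and 8.31 in isoniazid lungs, against 8.14, 8.17, 7.04, 6.80 and 6.93 in control lungs, of which 2 reached the isoniazid range. Per1 differed by 0.94 ± 0.35 (adjusted p = 0.605) and 0.76 ± 0.35 (adjusted p = 0.81), and 0.85 ± 0.25 over both times (adjusted p = 0.141). Without the 7 arrays of high Gapdh ratio, the 14-day difference of Per1 was 0.31. Per1 averaged 7.02 ± 1.08 (permethrin 5000 ppm) and 7.86 ± 0.25 (permethrin 10000 ppm) at 7 days, and 7.59 ± 0.49 and 7.22 ± 0.93 at 14 days (SD). The spread among the permethrin 5000 ppm lungs at 7 days came mainly from 1 lung at 5.28.

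Per2, the closest relative of Per1, had 7.03, 6.93, 6.90, 6.50 and 6.53 in isoniazid lungs at 7 days, against 5.94, 6.23, 5.74, 5.94 and 6.36 in control lungs. The groups did not overlap. Its 14-day signals were 6.46, 6.33, 6.73, 6.31 and 7.23 in isoniazid lungs, against 6.27, 6.71, 6.36, 5.67 and 5.74 in control lungs, and these ranges overlapped. Per2 differed by 0.73 ± 0.27 (adjusted p = 0.592) and 0.46 ± 0.27 (adjusted p = 0.908). Without the 7 arrays of high Gapdh ratio, the 14-day difference was -0.08 and that over both times 0.33, against 0.60 with all arrays. In permethrin lungs Per2 means were 6.32 ± 0.63 (5000 ppm) and 6.58 ± 0.25 (10000 ppm) at 7 days, and 6.47 ± 0.74 and 6.51 ± 0.35 at 14 days (SD).

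The 2 cryptochromes, partners of the PER proteins, did not run together. Cry2 had 7.12, 7.09, 7.07, 7.10 and 6.91 in isoniazid lungs at 7 days, against 6.16, 6.57, 6.08, 6.50 and 6.70 in control lungs. The isoniazid lungs were tightly grouped and all above the control lungs. The 14-day signals were 6.48, 6.16, 6.85, 6.88 and 7.04 in isoniazid lungs, against 6.23, 6.22, 6.35, 6.77 and 6.43 in control lungs, and the groups overlapped. The log2 differences were 0.66 ± 0.18 (adjusted p = 0.235) and 0.28 ± 0.18 (adjusted p = 0.922), and 0.47 ± 0.12 over both times (adjusted p = 0.0855). Cry2 means in permethrin lungs were 6.48 ± 0.21 (5000 ppm) and 6.59 ± 0.41 (10000 ppm) at 7 days, and 6.49 ± 0.28 and 6.60 ± 0.30 at 14 days (SD). Cry1 spanned 5.54 to 6.79 in isoniazid lungs at 7 days, against 5.90 to 7.29 in control lungs, and 6.25 to 7.04 in isoniazid lungs at 14 days, against 6.15 to 6.76 in control lungs. Its log2 differences had opposite signs at the 2 times, -0.44 ± 0.22 at 7 days and 0.23 ± 0.22 at 14 days. The second was 0.13 without isoniazid replicate 5. The change of that difference between the times, 0.67, had an unadjusted p of 0.0362 and an adjusted p of 1.

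The REV-ERB genes encode the repressors of Arntl and Npas2, and Nr1d1 had the widest spread between animals of the whole set. Nr1d1 had 5.98, 6.30, 5.51, 6.97 and 6.51 in isoniazid lungs at 7 days, against 3.83, 3.55, 5.11, 5.86 and 5.31 in control lungs. After 14 days Nr1d1 had 6.02, 5.16, 6.70, 6.25 and 7.24 in isoniazid lungs, against 4.34, 4.49, 5.67, 6.24 and 5.18 in control lungs. Every isoniazid lung but 1 lay above the control mean of its time, and the groups overlapped at both times. The log2 differences were 1.52 ± 0.63 (adjusted p = 0.666) and 1.09 ± 0.63 (adjusted p = 0.908), the 7-day one being the largest difference of any clock gene at a single time. With the signals of cardiac, liver and brown fat markers as covariates the 14-day difference was 0.31. The permethrin groups averaged 4.99 ± 1.44 (5000 ppm) and 6.11 ± 0.93 (10000 ppm) at 7 days, and 4.93 ± 1.75 and 5.46 ± 0.65 at 14 days (SD). The lowest signals, 2.48 and 2.41, were in single permethrin 5000 ppm lungs at 7 and 14 days and lay under the level of 3.43 used as the limit for testing a gene's mean. The control lungs at 3.83 and 3.55 at 7 days, on which the 7-day difference partly rests, lay just above that limit.

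Nr1d2 had 9.41, 10.06, 9.88, 10.16 and 9.99 in isoniazid lungs at 7 days, against 7.69, 8.31, 8.76, 9.37 and 9.80 in control lungs. At 14 days it had 9.30, 9.09, 9.85, 10.12 and 9.95 in isoniazid lungs, against 7.81, 9.37, 8.98, 9.09 and 8.77 in control lungs. All 10 isoniazid lungs were above their control mean, but the highest control lungs reached into the isoniazid range at both times. The log2 differences were 1.12 ± 0.36 (adjusted p = 0.478) and 0.86 ± 0.36 (adjusted p = 0.768), and 0.99 ± 0.25 over both times (adjusted p = 0.0738). Nr1d2 averaged 9.21 ± 0.35 (permethrin 5000 ppm) and 9.71 ± 0.62 (permethrin 10000 ppm) at 7 days, and 8.91 ± 0.87 and 9.04 ± 0.59 at 14 days (SD). In the order of means the isoniazid groups and permethrin 10000 ppm at 7 days stood above all others, by more than the SD of the neighbouring groups.

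Over the 10 genes, the isoniazid differences were large beside those of all genes, but single genes seldom passed the test. At 7 days none of the 10 passed an adjusted p of 0.05 in limma, where 6 of all 13020 genes (0.0461%) did. Unadjusted p was under 0.05 for 8 of the 10 genes, beside 6.52% of all genes. Isoniazid and control lungs did not overlap for Arntl, Clock, Per1, Per2, Per3 and Cry2, 6 of 10, beside 1.94% of all genes. The median size of the log2 difference was 0.84 over the 10 genes and 0.11 over all genes tested. The 10 genes also spread more between animals of a group, with a median SD of 0.488, beside 0.259 over all genes tested.

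At 14 days none of the 10 passed either, beside 0.0307% of all genes, and 5 had an unadjusted p under 0.05, beside 6.03%. No clock gene had isoniazid and control lungs free of overlap at that time, where 0.591% of all genes did. The median size was 0.80, beside 0.11 over all genes. None of the 10 genes passed the test of a change in the isoniazid difference between the times, a test in which 1 of them, Cry1, had an unadjusted p under 0.05, beside 2.95% of all genes, and none of all genes passed (0%).

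The mean over both times, a comparison added after the group values had been seen, called 2 of 10 genes, beside 0.392% of all genes: Per3 was higher, beside 0.223%, and Npas2 lower, beside 0.169%. Unadjusted p was under 0.05 for 8 of 10, beside 9.14%. The Npas2 call was fragile: it held when any of 7 of the 20 isoniazid and control animals was left out, and without any of the other 13 the adjusted p was 0.0519 to 0.0946, at log2 differences of -1.17 to -1.0. The Per3 call held without 19 of the 20 animals; without isoniazid replicate 5 at 14 days the difference was 0.89 with an adjusted p of 0.0507. Without the 7 arrays of high Gapdh ratio neither gene passed, at -1.0 (adjusted p = 0.174) for Npas2 and 0.92 (adjusted p = 0.0923) for Per3.

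**Figure D2:**
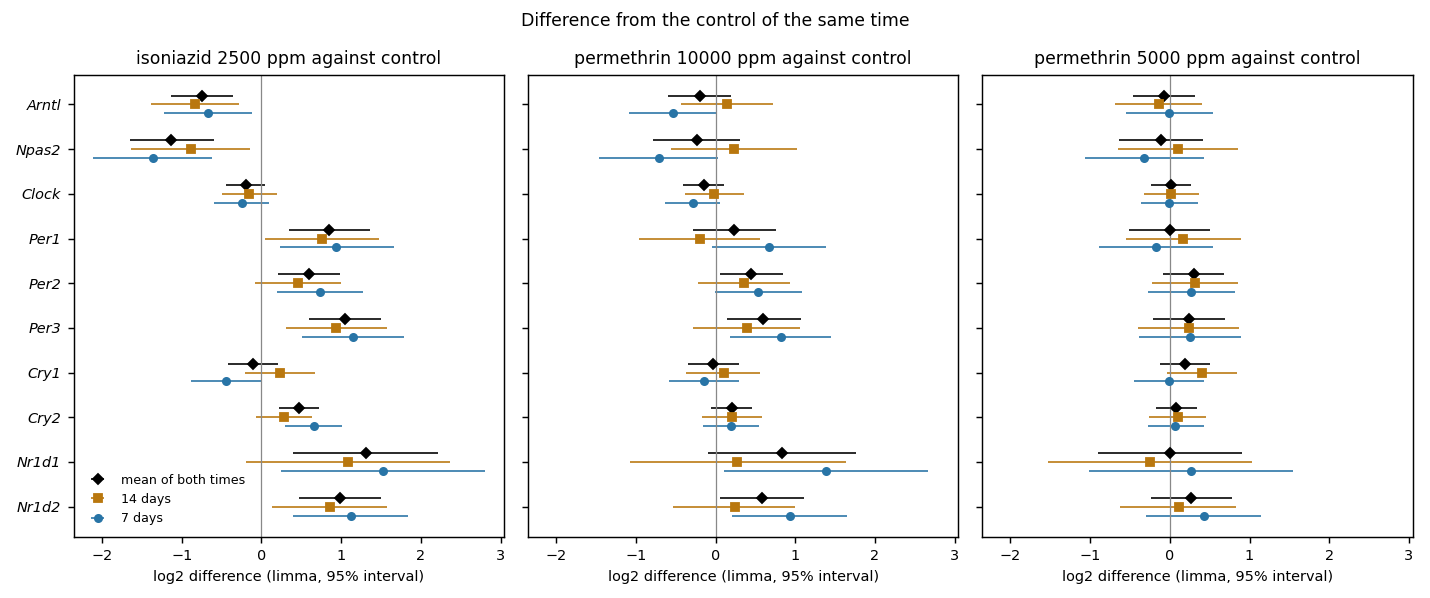
Fitted log2 differences from control with 95% intervals for the 10 clock genes, for isoniazid 2500 ppm, permethrin 10000 ppm and permethrin 5000 ppm, at each time and as the mean of both times. In isoniazid lungs the differences over both times run from -1.13 for Npas2 to 1.31 for Nr1d1, while those of permethrin 5000 ppm all have intervals that include 0.

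Summed signals of markers of neighbouring tissues overlapped between isoniazid and control lungs at both times, and at 14 days their ranges were shifted. Of 14 liver markers, 10 were on the array, and their summed signal spanned 207 to 1810 in isoniazid lungs, against 303 to 2720 in control lungs, at 7 days. At 14 days the sums were 248 to 486 in isoniazid lungs, against 445 to 1040 in control lungs. No liver marker was listed at 0, the lowest signals being 0.343 in isoniazid and 0.377 in control lungs. Cardiac muscle markers, 14 of 14 on the array, summed to 5800 to 18400 in isoniazid lungs, against 2410 to 7510 in control lungs, at 14 days. At 7 days they summed to 7750 to 9610 in isoniazid lungs and 6460 to 17300 in control lungs. Brown fat markers, 8 of 8, summed to 243 to 945 in isoniazid lungs and 179 to 456 in control lungs at 14 days, and to 421 to 872 in isoniazid lungs and 243 to 1280 in control lungs at 7 days. With the cardiac, liver and brown fat signals as covariates, the differences over both times were -0.80 for Npas2 (adjusted p = 0.363) and 0.88 for Per3 (adjusted p = 0.242), and no clock gene passed. That of Nr1d1 was 0.65 with the covariates and 1.31 without them.

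Permethrin at 10000 ppm for 7 days was the permethrin group with the largest differences from control in most of the set. Npas2 differed from control by -0.71, Arntl by -0.54, Per1 by 0.67, Per3 by 0.82, Nr1d2 by 0.93 and Nr1d1 by 1.38 on the log2 scale. None of the 10 genes passed the test in limma (all adjusted p = 1), where 0.238% of all genes did, and 3 (Per3, Nr1d1 and Nr1d2) had an unadjusted p under 0.05, beside 3.15%. Clock and Per1 were the 2 genes whose permethrin and control lungs did not overlap, beside 1.05% of all genes. Per1 had 8.0, 7.87, 8.19, 7.54 and 7.69 in those permethrin lungs, against 7.07, 7.13, 7.11, 7.32 and 7.31 in control lungs. Both sets of differences at 7 days are set against the same 5 control lungs.

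The other permethrin groups stayed nearer to control. At 5000 ppm for 7 days none of the 10 genes passed (0.0922% of all genes did) and none had an unadjusted p under 0.05, beside 1.99%. The differences ran from -0.32 for Npas2 to 0.43 for Nr1d2, with a median size of 0.21, beside 0.086 over all genes. At 10000 ppm for 14 days no clock gene passed, beside 0.215%, or had an unadjusted p under 0.05, beside 6.04%, and the differences spanned -0.20 to 0.39. At 5000 ppm for 14 days the result was again 0 of 10 by both measures, beside 0.131% and 5.22%, and the span was -0.25 to 0.40. No clock gene was free of overlap between permethrin and control lungs at 5000 ppm for 7 days (0.745% of all genes were), 10000 ppm for 14 days (1.87%) or 5000 ppm for 14 days (0.968%). The 95% intervals at 14 days were wide: that of Npas2 reached from -0.56 to 1.02 at 10000 ppm and from -0.65 to 0.85 at 5000 ppm, and that of Nr1d1 from -1.08 to 1.63 and from -1.53 to 1.03.

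Averaged over both times, none of the 10 genes passed for permethrin 10000 ppm (0.499% of all genes did) or for 5000 ppm (0.223%). For 10000 ppm, Per2, Per3 and Nr1d2 had an unadjusted p under 0.05, 3 of 10, beside 6.52%. Among these 3, Per3 had the largest difference, 0.60 ± 0.23. Nr1d1 differed by more, 0.83 ± 0.46, with an unadjusted p of 0.0799 in limma. For 5000 ppm no clock gene did, beside 3.73%.

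Isoniazid was also set against permethrin directly, in comparisons likewise added after the group values had been seen. Over both times, none of the 10 genes passed against permethrin 10000 ppm, beside 0.353%, and 4 had an unadjusted p under 0.05, beside 5.75%. Npas2 was nearest to the threshold, at -0.89 ± 0.27 with a 95% interval of -1.43 to -0.34 and an adjusted p of 0.248. Against permethrin 5000 ppm none passed, beside 0.415%, and 7 of 10 had an unadjusted p under 0.05, beside 8.69%. Npas2 differed there by -1.02 ± 0.26 (adjusted p = 0.0783), Per3 by 0.80 ± 0.22 (adjusted p = 0.118) and Arntl by -0.68 ± 0.19 (adjusted p = 0.126).

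Between the permethrin doses, no clock gene passed at 7 or 14 days, where no gene of the array did (0%). At 7 days Per1 was higher by 0.84 ± 0.35 at 10000 ppm than at 5000 ppm, with an unadjusted p of 0.0227, 1 of 10 genes beside 2.07% of all genes. At 14 days no clock gene had an unadjusted p under 0.05, beside 3.79%.

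Longer feeding gave no call in the set. Between 14 and 7 days, 0 of 10 genes passed in the isoniazid lungs (0.00768% of all genes did), the control lungs (0.115%) and the lungs of either permethrin dose (0% at each). Clock was the gene with an unadjusted p under 0.05 in 2 groups, at -0.44 ± 0.17 in control lungs (unadjusted p = 0.0158) and -0.41 ± 0.17 with permethrin 5000 ppm (unadjusted p = 0.0234). In both, the 14-day lungs lay wholly under the 7-day lungs, 1 of 10 genes beside 3.93% of all genes in control and 2.73% in permethrin 5000 ppm lungs, and the 4 high-ratio arrays of these groups were all at 14 days. In isoniazid lungs Cry1 was higher by 0.44 ± 0.22 and Cry2 lower, by -0.38 ± 0.18, at 14 days than at 7 days, with unadjusted p of 0.0495 and 0.0379. The permethrin differences changed between the times in 0 of 10 genes at either dose, with none at an unadjusted p under 0.05, beside 2.25% of all genes at 10000 ppm and 2.85% at 5000 ppm, and no gene of the array passed (0%). For 14 against 7 days, the share of all genes with an unadjusted p under 0.05 was 11.4% in isoniazid, 13.9% in control, 10.9% in permethrin 5000 ppm and 10.2% in permethrin 10000 ppm lungs.

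Over all 8 groups together, the F test in limma called 0 of 10 clock genes, beside 280 of 13020 genes (2.15%). The smallest adjusted p were 0.0784 for Per3, 0.0865 for Npas2 and 0.0988 for Arntl. Animals of the same group differed widely. The pooled SD within groups was above the median of all genes, 0.259, for all 10 clock genes. It was smallest for Cry2 (0.283) and Clock (0.286) and largest for Npas2 (0.619) and Nr1d1 (1.07), which stood at the 99.1 percentile of all genes tested.

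**Figure D3:**
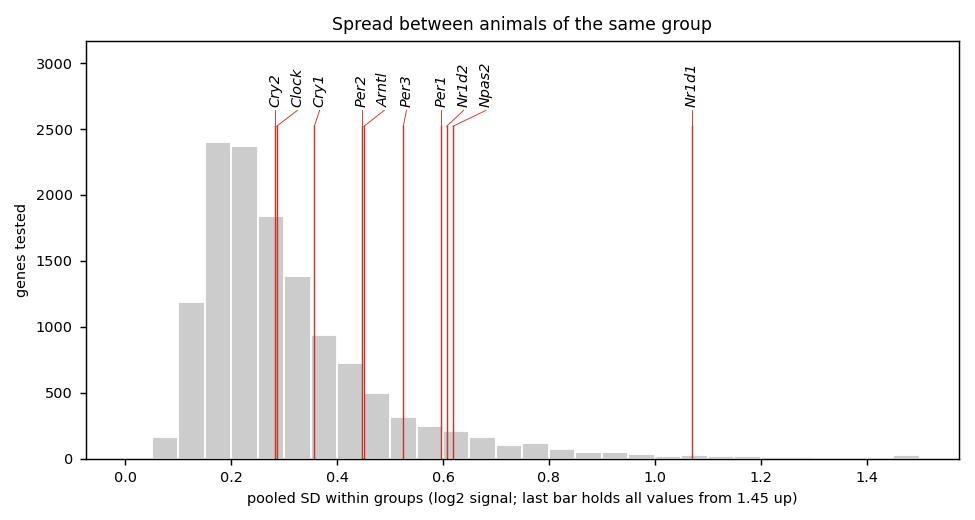
Histogram of the pooled SD within groups (log2 signal, x axis) over the 13020 genes tested, with the 10 clock genes marked by lines. All 10 lie above the median of 0.259, and Nr1d1 stands far to the right at 1.07.

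The animals' deviations from their own group means were therefore compared between the clock genes, 45 pairs over 39 lungs, with permutation within groups. That permutation treats the animals of a group as exchangeable. Yet in most groups replicate 1 lay above its group mean in Arntl and below it in Per3, as given under the processing. Replicate number was not removed from these values. By r, 20 of the 45 had an adjusted p of at most 0.05, among them 10 of the 21 pairs of an activator with a repressor. No share over pairs of other genes stands beside these counts, so they are descriptions of this set. Part of the set was opposed between animals. Animals with high Arntl for their group had high Npas2 (r = 0.75, rho = 0.78, adjusted p = 5.62e-05) and low Per3 (r = -0.75, rho = -0.65, adjusted p = 0.000123), low Nr1d2 (r = -0.62, rho = -0.66, adjusted p = 5.62e-05) and low Nr1d1 (r = -0.59, rho = -0.67, adjusted p = 0.000123). Raw p of 1e-05, as for Arntl with Npas2 in both measures, is the smallest that the resampling can give. Without the 2 lungs of most extreme Arntl, r was 0.81 with Npas2, -0.65 with Per3, -0.69 with Nr1d2 and -0.59 with Nr1d1. Within the 20 lungs at 7 days and the 19 at 14 days the signs were the same: with Npas2 0.80 and 0.73, and with Per3 -0.58 and -0.81. The deviations of Arntl formed no separate clusters beyond 1 isoniazid lung at 14 days, at -1.37.

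**Figure D4:**
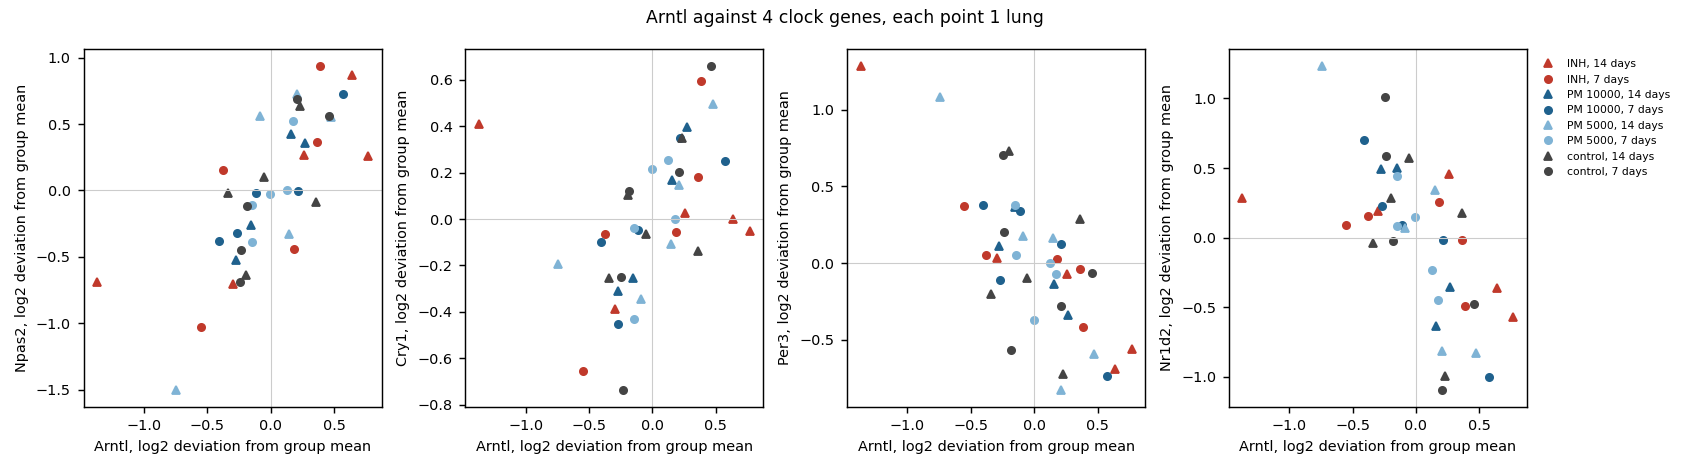
Deviation of each of the 39 lungs from its group mean in Arntl (x axis, log2) against Npas2, Cry1, Per3 and Nr1d2 (y axes, log2), coloured by diet, with triangles for 14 days and circles for 7 days. Npas2 (r = 0.75) and Cry1 (r = 0.41) slope upward with Arntl, and Per3 (r = -0.75) and Nr1d2 (r = -0.62) slope downward.

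Npas2 was opposed to 4 of the 7 repressors, with r of -0.80 for Nr1d2 (rho = -0.80), -0.78 for Per3 (rho = -0.76) and -0.72 for Nr1d1 (rho = -0.78), each with an adjusted p of 5.62e-05, and -0.45 for Cry2 (rho = -0.41, adjusted p = 0.0184). Without the 2 lungs of most extreme Npas2 the first 3 were -0.80, -0.74 and -0.72. Its r with Per1 was -0.12 (adjusted p = 0.515) and with Per2 -0.22 (adjusted p = 0.393). On the other side, Nr1d1 and Nr1d2 deviated together (r = 0.76, rho = 0.77), as did Per3 with Nr1d2 (r = 0.75, rho = 0.76) and Per3 with Cry2 (r = 0.73, rho = 0.68), each with an adjusted p of 5.62e-05. Cry1 deviated with Npas2 and Arntl but not detectably with Clock: r was 0.58 with Npas2 (rho = 0.60, adjusted p = 0.00247), 0.41 with Arntl (rho = 0.60, adjusted p = 0.0292) and 0.02 with Clock (rho = 0.17, adjusted p = 0.918). With Nr1d2 it was -0.58 (rho = -0.63, adjusted p = 0.00235). Its tie to Arntl was 0.77 in the 7-day lungs and 0.13 in the 14-day lungs.

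Per1 and Per2 formed a pair of their own. They deviated together (r = 0.67, rho = 0.67, adjusted p = 0.000375, 0.80 at 7 days and 0.58 at 14 days) and neither passed the test with any other of the 10 genes. With Arntl, r was -0.14 for Per1 and -0.23 for Per2. Clock passed with no other gene by r. With Arntl its r was 0.50 (adjusted p = 0.0692) and its rho 0.45 (adjusted p = 0.0284), so that pair passed by rank only, and r was 0.30 without the 2 lungs of most extreme Arntl and 0.19 without the 7 arrays of high Gapdh ratio. Per3 with Cry1 was the other pair that passed by rank only (r = -0.34, adjusted p = 0.0807, rho = -0.49, adjusted p = 0.00987).

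**Figure D5:**
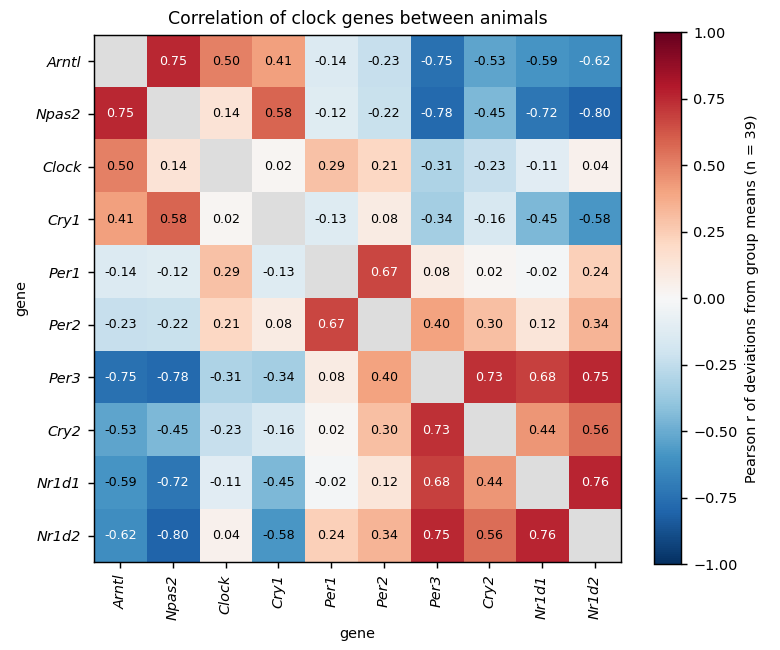
Pearson r of deviations from group means between each 2 of the 10 clock genes over 39 lungs, red for positive and blue for negative. Arntl, Npas2 and Cry1 sit in one positive block and Per3, Cry2, Nr1d1 and Nr1d2 in another, with negative values between the blocks.

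The deviations of some clock genes also went with those of other measures, 40 relations in all. Clock had an r of -0.80 with the log2 Gapdh ratio (rho = -0.63, adjusted p = 0.0008, -0.70 without the 2 farthest lungs), which was 0.04 in the 7-day and -0.90 in the 14-day lungs. No other clock gene passed with that ratio, and none with the cardiac or brown fat markers. The mean liver marker signal had an r of -0.54 with Nr1d1 (rho = -0.60, adjusted p = 0.0114, -0.56 without the 2 farthest lungs), 0.50 with Npas2 (rho = 0.51, adjusted p = 0.0357) and 0.39 with Arntl (rho = 0.45, adjusted p = 0.0362). With Nr1d2 it was -0.46 (adjusted p = 0.0533), passing by rank only (rho = -0.51, adjusted p = 0.0203). With the cardiac, liver and brown fat signals regressed out, r of Arntl with Cry1 was 0.32 and with Per2 -0.33.

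Outside the set, the genes whose deviations were most like those of Arntl were Cxcl5 (r = 0.70), Rasl11a (0.67), Leo1 (0.66), Spon2 (0.65) and Dtx4 (0.63), over 39 lungs. The most opposed were Dbp (r = -0.84), Tef (-0.73), Tspan4 (-0.70), Zfp810 (-0.69) and Gfm2 (-0.64). These were the extremes of all tested genes and carry no test. Of the 10, 4 passed in isoniazid against control over both times, beside 0.392% of all genes: Cxcl5, the neutrophil chemokine, at -1.70 (adjusted p = 0.0457), Spon2 at -1.30 (adjusted p = 0.000912), Dtx4 at -0.43 (adjusted p = 0.0361) and Tef at 0.67 (adjusted p = 0.0112).

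Dbp, Tef and Hlf encode the PAR bZIP activators of D-boxes, and Nfil3 their repressor. Dbp had 6.65, 7.65, 7.29, 7.92 and 8.83 in isoniazid lungs at 7 days, against 4.49, 4.92, 5.78, 6.74 and 6.93 in control lungs. At 14 days it had 6.50, 5.62, 8.19, 7.92 and 9.78 in isoniazid lungs, against 4.43, 5.71, 5.24, 7.55 and 5.95 in control lungs. Its groups overlapped at both times, and the difference over both, 1.86 ± 0.48, missed the threshold (adjusted p = 0.0751). Tef had 8.78, 9.03, 9.01, 9.10 and 9.04 in isoniazid lungs at 7 days, against 7.91, 8.39, 8.14, 8.39 and 8.66 in control lungs. After 14 days Tef had 8.62, 8.57, 9.15, 9.09 and 9.51 in isoniazid lungs, against 7.92, 8.29, 8.19, 8.76 and 8.53 in control lungs. The 7-day isoniazid lungs were all above the control lungs. Tef was called by the F test over the 8 groups (adjusted p = 0.0384), 1 of 4 in this list, beside 2.15% of all genes. Hlf differed by 0.52 ± 0.14 (adjusted p = 0.0947) and Nfil3 by -0.23 ± 0.26 (adjusted p = 0.851). The median over the 4 genes was 0.60, beside 0.01 over all genes.

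The other groups around the clock had 0 or 1 call each. Of 7 further repressors and nuclear receptors, 4 were tested. None was called by the F test, beside 2.15% of all genes, or in isoniazid lungs over both times, beside 0.392%. Their median difference was 0.14, and Bhlhe40, which encodes the repressor DEC1, differed by 0.40 ± 0.15 (adjusted p = 0.348). Of 16 kinases, phosphatases and ligases that act on clock proteins, 14 were tested, none was called, and their median difference was 0.02. Of 21 genes rhythmic in many tissues, 16 were tested. The F test called 1, Tns2 (adjusted p = 0.0131), beside 2.15% of all genes, and isoniazid called none, with a median of 0.24. Between 14 and 7 days Tns2 differed by 0.53 ± 0.12 in permethrin 5000 ppm, 0.39 ± 0.12 in control and 0.18 in isoniazid and permethrin 10000 ppm lungs. In isoniazid against control over both times it differed by 0.23 ± 0.08 (adjusted p = 0.336). Wee1, the cell cycle kinase with E-boxes in its promoter, differed by 0.60 ± 0.18 (adjusted p = 0.17).

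Genes induced by glucocorticoids, hormones that are themselves rhythmic, had a median difference of 0.43 in isoniazid lungs over both times, beside 0.01 over all genes. Of 15, 14 were tested and 1 was called there, beside 0.392% of all genes, Fkbp5 at 1.04 ± 0.23 (adjusted p = 0.0266), a chaperone of the glucocorticoid receptor named here after its value was seen. The F test called none of them, beside 2.15% of all genes. Of 10 immediate early genes, 9 were tested, and the F test called 1, Fos (adjusted p = 0.0263). In isoniazid lungs over both times Fos differed by 0.54 ± 0.13 (adjusted p = 0.0544), with a median over the list of 0.02. The Fos difference was of like size with permethrin 10000 ppm, 0.50 ± 0.14 (adjusted p = 0.112), and was 0.19 ± 0.13 with 5000 ppm.

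Of 13 probe sets of the clock genes not used for the main values, 9 were bright enough to be tested, and these pointed the same way as those used, with unequal size. The only other probe sets of Npas2 and Nr1d2 were too dim, and Per1, Cry1, Cry2 and Nr1d1 had no other. In isoniazid against control over both times, the second Arntl probe set, a dimmer one, differed by -0.18, beside -0.75 for the one used. The other 3 Clock probe sets differed by -0.21 to -0.18. The second Per2 probe set differed by 0.82, and the other 4 tested for Per3 by 0.56 to 0.90. With all 23084 probe sets tested together, Per3 remained called (adjusted p = 0.0352) and Npas2 did not (adjusted p = 0.0625).

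Across the whole series, array correlations were 0.862 to 0.945. The lung markers Sftpc, Ager and Scgb1a1, of alveolar type 2, alveolar type 1 and club cells, averaged signals of 7370, 7700 and 9550, among the brightest of all genes.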

How the data were processed

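RNA of 39 mouse lungs was hybridised to Affymetrix arrays, 1 animal on each. The deposited values are linear signal intensity per probe set, made by the authors with MAS5 (version not given in the sources used here), per the submitters' processing notes. Each deposited array had a trimmed mean of 100.0, and array medians of 17.39 to 26.2. These were quantile-normalized and log2-transformed with no pseudocount, since the ratio of medians, 1.507, was over a limit of 1.5. Of 45101 probe sets, 64 were controls, 34945 had 1 gene symbol, 932 several and 9160 none. One probe set was kept for each gene, the brightest on average, and genes were tested when it was in the upper 60% (mean log2 signal at least 3.43), which left 13020. Detection calls were not used here, and the number of arrays limits the precision.

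The 8 group means were fitted over all 39 arrays with limma 3.58.1 (R 4.3.3, trended eBayes), and p-values were adjusted by Benjamini-Hochberg over 13020 genes. There were 21 comparisons. The 5 that average both times were added after the group values had been seen. The clock genes, lists and comparisons were chosen with earlier results of these data known. Named genes were the 10 clock genes, list genes past the F test, and the 5 most positively and 5 most negatively correlated with Arntl. Other examples were named after their values were seen. Correlations used 100000 permutations within groups, two-sided (Python 3.11.15, numpy 2.4.6). The fit was tested on simulated data.

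Alternatives were the authors' scaling, median centring, a pseudocount of 4, an upper 40% filter, every probe set, compared groups alone, array weights, a replicate block, tissue covariates, omission of high-ratio arrays and omission of single animals. Over all genes tested, the deviations of same-numbered lungs of a treated group and its control correlated at -0.34 to 0.27. At most 2 of 5 pairs in a comparison were over 0.1. That check cannot exclude an order by replicate number in the clock genes alone. In replicate 1, Arntl deviated from its group mean by -0.004 in permethrin 5000 ppm lungs at 7 days and by 0.147 to 0.638 elsewhere. Per3 of replicate 1 deviated by 0.164 in permethrin 5000 ppm lungs at 14 days and by -0.734 to -0.277 elsewhere. What the numbers follow was not tested.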

Additional observations from a re-analysis of the deposited data

Results flagged for a closer look

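In 3 of the 80 sets of one gene in one group, a single lung stood apart from the others. The gap was larger than in 95% of random sets of that size. Chance alone gives about 1 in 20, so the count of such sets was not above that of chance. Per1 in isoniazid lungs at 14 days had 7.61 in replicate 4, where the nearest other lung had 8.29. Cry2 in isoniazid lungs at 7 days had 6.91 in replicate 5, where the nearest had 7.07, a gap of small size in a tight group. Nr1d1 in permethrin 5000 ppm lungs at 7 days had 2.48 in replicate 2, where the nearest had 5.12. The same 7-day lung had an Nr1d2 signal of 8.76, the lowest of its group. Why these lungs stood apart was not tested.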

How the results depend on the processing

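For isoniazid over both times, the Per3 call held under 27 of 31 alternatives and the Npas2 call under 13 of 31. The difference of Clock at 14 days reversed to 0.07 without isoniazid replicate 5 (-0.28 to 0.07 over single omissions), that of Cry1 for permethrin 10000 ppm at 7 days to 0.01 without control replicate 2 (-0.34 to 0.01), and that of Per2 in isoniazid lungs at 14 days to -0.08 without the arrays of high Gapdh ratio. For isoniazid over both times, the count of clock genes called, 2, was 1 with array weights and with every probe set, Per3 in each. With only the compared groups it was also 1, but of another gene: Per1 passed (adjusted p = 0.0403), and Per3 (adjusted p = 0.0574) and Npas2 (adjusted p = 0.0807) did not. It was 0 with tissue covariates and without high-ratio arrays. Single omissions gave 0 to 4, beside 27 to 63 of all genes. With the replicate number as a block it was 5, beside 68 of all genes, where the main fit had 51. Whether that number marks an order of the animals was not tested. In the F test, array weights and the replicate block each called 2 genes in place of 0, and single omissions 0 to 2. No count over all genes under these settings stands beside those of the F test. For isoniazid at 7 days, array weights called 3 (Npas2, Per3 and Cry2), beside 72 of all genes, where the main fit had 6. The compared groups alone called 1 (Per1). For permethrin 10000 ppm at 7 days the compared groups alone called 1 (Per1), where the count over all genes was 20 to 45 across such settings. Isoniazid against permethrin 5000 ppm gave 1 with the replicate block and 0 to 2 under single omissions. Over all genes that comparison had 23 to 58 calls across such settings and 36 to 74 under single omissions. The block moved no other count of clock genes.

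The Npas2 call was lost without control replicates 1, 2, 3 or 5 at 14 days, control replicates 1, 2 or 3 at 7 days, isoniazid replicates 3 or 5 at 14 days and isoniazid replicates 2, 3, 4 or 5 at 7 days. With Arntl, r of Clock was 0.19 without high-ratio arrays, r of Per2 -0.33 and of Cry1 0.32 with tissue signals regressed out. Under single omissions r with Arntl spanned 0.71 to 0.79 for Npas2, 0.20 to 0.61 for Clock, -0.17 to -0.05 for Per1, -0.27 to -0.08 for Per2, -0.78 to -0.65 for Per3, 0.35 to 0.71 for Cry1, -0.57 to -0.46 for Cry2, -0.63 to -0.54 for Nr1d1 and -0.72 to -0.57 for Nr1d2. Over all genes, the 51 calls for isoniazid over both times ranged from 18 with median centring to 68 with the block, and the 6 at 7 days from 2 with median centring to 72 with array weights. The cause of these changes was not tested.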
